A study of Gallus gallus with 6 samples.

Results

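The 7 genes described here encode transcription factors that mark and shape mesenchyme, namely SNAI1, SNAI2, ZEB1, ZEB2, TWIST1, TWIST2 and PRRX1. Members were taken as every probe set whose platform gene symbol was exactly one of these names, which gave 17 of the 38439 probe sets tested, for 7 of 13051 genes. SNAI1 had 2 probe sets, SNAI2 had 1, ZEB1 had 4, ZEB2 had 5, TWIST1 and TWIST2 had 1 each and PRRX1 had 3. RNA came from chick forelimb bud, the outgrowth that forms the wing, around a heparin acrylic bead soaked either in recombinant human FGF2, a fibroblast growth factor, or, for control tissue, in phosphate-buffered saline (PBS). Beads were placed in the posterior mesoderm of embryos at Hamburger-Hamilton stage 23, after 4 days of incubation, roughly 500 µm short of the distal tip, and tissue was harvested at stage 25, when 24 h had passed. The 6 arrays were split evenly, 3 to a group, and each held RNA pooled from several embryos, so the error given here is the spread between pools. Per the methods each repeat fell on its own day and gave a pool per treatment group. The design therefore pairs a PBS with an FGF2 pool by day. The labels do not tie the replicate numbers to days, so a day could not be fitted and the main fit does not pair the arrays. No strain or genotype is named for the embryos, and both groups carried a bead and its wound.

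SNAI and ZEB proteins are zinc finger factors that bind E-box sequences and repress genes of the epithelial state, and they are best known for driving the passage of epithelial cells into mesenchyme. TWIST proteins are basic helix-loop-helix factors that pair with E proteins and are held in check by ID proteins, and in the mouse Twist1 is needed for limb bud growth under the apical ridge. PRRX1 is a paired-related homeobox factor present through most of the limb bud mesenchyme, and its mouse enhancer is widely used to mark that tissue. The comparison of FGF2 with PBS asks how the level of each factor stands in mesenchyme that has been exposed to FGF for a day.

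Values are log2 units after Robust Multi-array Averaging (RMA), a procedure that corrects background, brings the arrays to a common distribution and gives each probe set a single value. The medians of the arrays were 4.754 to 4.813. Probe sets named after non-chicken records, most of them viral, served as a background. Their median level was 2.38, and 3.57 was the 95th percentile. All 7 genes had at least 1 probe set far above that background. The forelimb marker TBX5 was measured at the levels of expressed genes, with means of 11.31 in PBS and 11.15 in FGF2 tissue, and the other limb mesenchyme markers measured, 14 in all with TBX5, were likewise above background. Of these 7 had a higher and 7 a lower mean with FGF2, with 0 past limma's adjusted threshold and 7 under 0.05 before adjustment, 4 higher and 3 lower, where 7.76% of all genes were higher and 4.58% lower by that measure. The hindlimb gene TBX4 was at background at 2.34 and 2.33, as was HOXC11, while PITX1, a further hindlimb marker, was above it at 7.45 and 6.94. Precision is limited by having 3 arrays to a group.

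Around FGF2 beads both SNAI genes stood higher, ZEB2 and TWIST2 stood lower, and TWIST1, ZEB1 and PRRX1 differed little. SNAI2 was 1.85-fold higher and SNAI1 1.28-fold higher, whereas ZEB2 was 1.52-fold and TWIST2 1.33-fold lower. ZEB1 was 1.11-fold higher, PRRX1 1.07-fold higher and TWIST1 1.01-fold higher. No member passed an adjusted p of 0.05 in limma, so none of these differences is a call. Fewer cells of a type and less RNA per cell cannot be told apart in tissue RNA. Across all probe sets the same fit called 0.0104% at that threshold.

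At an unadjusted p under 0.05 in limma, 7 of the 17 member probe sets stood apart, 4 higher and 3 lower, where 8.93% of all probe sets did (5.6% higher and 3.33% lower). All 7 were bright, and among the probe sets brighter than the median the share was 16.1%. The PBS and FGF2 values did not overlap in 6 of the 17, 4 higher and 2 lower, against 12.4% of all probe sets (6.53% higher and 5.84% lower) and 19.3% of the brighter ones. Probe sets of one gene read the same transcripts, so these counts rest on 5 genes by p and on 5 genes by overlap. In a representative probe set, the brightest of its gene, the groups were apart for 4 of the 7 genes, 3 higher and 1 lower, where 16% of all genes were apart. The unadjusted count was 4 without PBS replicate 3, without FGF2 replicate 1 or without FGF2 replicate 2. In these fits 6.81%, 10.5% and 5.27% of all probe sets were under 0.05. SNAI1, SNAI2 and ZEB2 were among the genes each time.

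**Figure D1:**
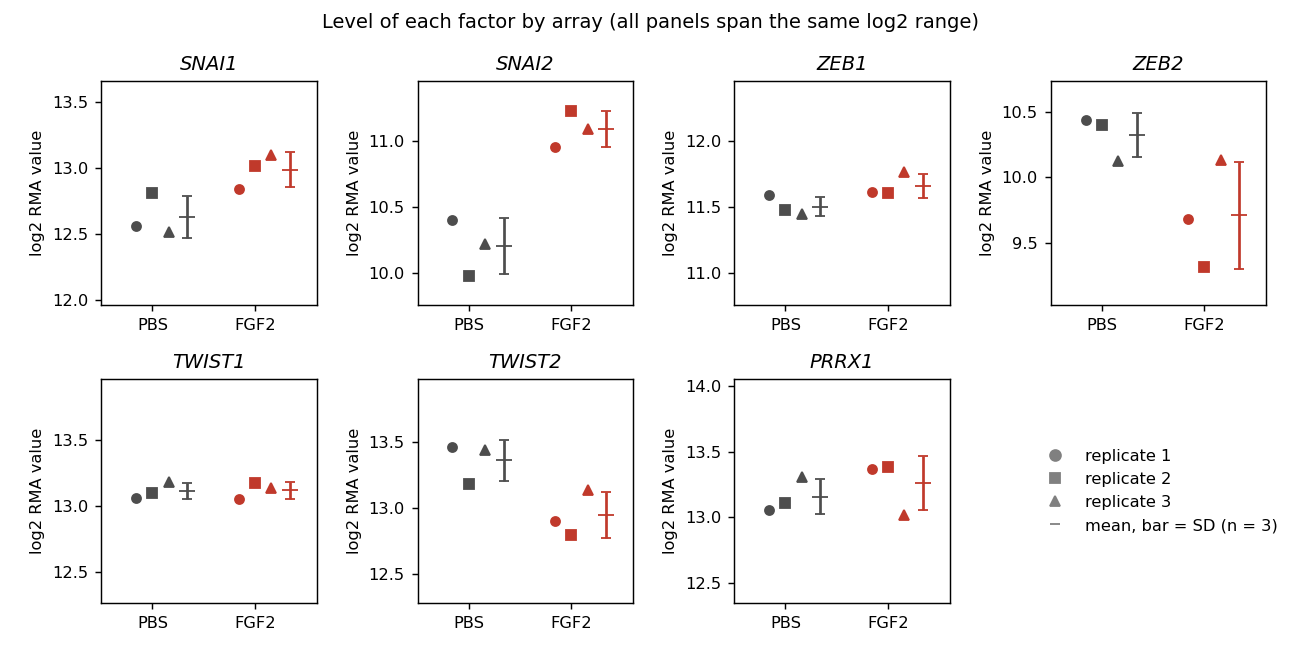
Level of each factor (log2 RMA value, vertical axis) in the 3 PBS arrays (grey) and the 3 FGF2 arrays (red), representative probe set, with symbols for replicate numbers and the mean with its SD at the side of each group. SNAI2 shows the clearest separation, with FGF2 values from 10.95 to 11.23 above PBS values from 9.98 to 10.40, while TWIST1 stays between 13.05 and 13.18 throughout.

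SNAI2, known in the chick as Slug and expressed in migrating neural crest and in limb mesenchyme, gave 10.40, 9.98 and 10.22 in PBS tissue and 10.95, 11.23 and 11.09 in FGF2 tissue. Every FGF2 array lay above every PBS array, and the gap between the nearest values was 0.55. The means were 10.20 ± 0.212 and 11.09 ± 0.139 (SD, n = 3), a log2 fold change of 0.89 ± 0.128 (SE). The 95% interval was 0.57 to 1.21, which is 1.48- to 2.32-fold. The limma p was 0.000725, the 114th smallest of all probe sets, and the adjusted p was 0.233. Over the alternative analyses the adjusted p ran from 0.0211 to 0.563 and passed in 2 of 13. Those were the robust fit with a variance that follows intensity (adjusted p = 0.0497) and the fit with array weights (adjusted p = 0.0211), which called 39 and 2256 probe sets in all. The study counted SNAI2 among the genes changed both on these same arrays and in an RNA-seq experiment at an earlier time, so its place on the list is not independent of the comparison.

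SNAI1, the founding vertebrate Snail factor, was read by a pair of probe sets that gave similar differences. The brighter one gave 12.57, 12.82 and 12.52 in PBS and 12.84, 13.02 and 13.10 in FGF2 tissue. The groups did not overlap, but the gap between PBS replicate 2 and FGF2 replicate 1 was only 0.027. The log2 fold change was 0.35 ± 0.106 (SE; 95% interval 0.09 to 0.62; adjusted p = 0.464). The other probe set gave 10.89, 11.22 and 10.99 against 11.28, 11.58 and 11.63, a log2 fold change of 0.46 ± 0.129 (SE; adjusted p = 0.450). Here too FGF2 replicate 1 was the array nearest to PBS. Without PBS replicate 2 the brighter set gave 0.45, and over the leave-one-out fits it ran from 0.30 to 0.45.

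ZEB2, a zinc finger homeobox repressor also known as a factor of neural crest and of nerve cells, was lower by both of its bright probe sets. The brighter set gave 10.44, 10.40 and 10.13 in PBS and 9.69, 9.32 and 10.13 in FGF2 tissue. PBS replicate 3 and FGF2 replicate 3 were level with each other, so the groups met at that point and did not separate. The log2 fold change was -0.61 ± 0.221 (SE; 95% interval -1.16 to -0.05; adjusted p = 0.538). The second bright set gave 9.04, 9.03 and 8.82 against 8.39, 8.20 and 8.71, and here the groups were apart by 0.10. Its log2 fold change was -0.53 ± 0.146 (SE; adjusted p = 0.447). FGF2 replicate 3 was the highest FGF2 array in both sets, and without it the brighter set gave -0.82 (adjusted p = 0.256). With array weights, which count that array most, the sets gave -0.18 and -0.24, with limma p of 0.347 and 0.0995 before adjustment.

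ZEB1, the close relative of ZEB2, was slightly higher and not lower. Its brightest probe set gave 11.58, 11.47 and 11.45 in PBS and 11.61, 11.60 and 11.76 in FGF2 tissue, groups that were apart by 0.017. The log2 fold change was 0.16 ± 0.061 (SE; adjusted p = 0.552). A second bright set gave 11.14, 11.32 and 11.01 against 11.16, 11.24 and 11.39, which overlapped, with a log2 fold change of 0.11 ± 0.0996 (SE; adjusted p = 0.645). The size in the brightest set is small enough that a PBS and an FGF2 array nearly touch, and the other set does not separate the groups.

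The remaining 5 probe sets of the ZEB genes, 2 of ZEB1 and 3 of ZEB2, had means of 2.25 to 2.91, under the 95th percentile of the background. Their log2 fold changes were -0.07 to -0.04, where probe sets that dim had a median of -0.03. Such values give no level of ZEB1 or ZEB2, and a mean over all probe sets of a gene dilutes the ZEB2 difference to -0.26 and the ZEB1 difference to 0.04.

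TWIST2, called Dermo1 when first found in dermis, was lower in every FGF2 array. It gave 13.47, 13.18 and 13.44 in PBS and 12.90, 12.80 and 13.14 in FGF2 tissue. The groups were apart by 0.042, between PBS replicate 2 and FGF2 replicate 3. The means were 13.36 ± 0.158 and 12.95 ± 0.175 (SD, n = 3), a log2 fold change of -0.42 ± 0.119 (SE; 95% interval -0.72 to -0.12; adjusted p = 0.459). It ran from -0.51 to -0.34 in the leave-one-out fits and passed in none of 13 alternatives (adjusted p = 0.0817 to 0.924).

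TWIST1, whose loss in humans causes Saethre-Chotzen syndrome, was nearly flat. It gave 13.06, 13.10 and 13.18 in PBS and 13.05, 13.18 and 13.13 in FGF2 tissue, a range of 0.13 over all 6 arrays. The log2 fold change was 0.0078 ± 0.049 (SE; adjusted p = 0.921), and the 95% interval of -0.12 to 0.13 leaves room for 0.923- to 1.10-fold. This was the narrowest interval among the representative probe sets of the 7 factors.

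PRRX1 was measured by 3 bright probe sets whose groups overlapped in each. The brightest gave 13.06, 13.11 and 13.31 in PBS and 13.37, 13.38 and 13.02 in FGF2 tissue. FGF2 replicates 1 and 2 were above all PBS arrays, and FGF2 replicate 3 was below them all. The log2 fold change was 0.10 ± 0.124 (SE; 95% interval -0.21 to 0.41; adjusted p = 0.662). In the other probe sets FGF2 replicate 3 was again the lowest FGF2 array, with 12.30, 12.35 and 11.96 and with 13.11, 13.18 and 12.85, and it lay within the range of the PBS arrays. Their log2 fold changes were 0.19 and 0.16. Without FGF2 replicate 3 the values of the 3 sets were 0.22, 0.31 and 0.26 (adjusted p = 0.517, 0.527 and 0.429). For the brightest set the leave-one-out fits ran from 0.038 without FGF2 replicate 2 to 0.22.

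**Figure D2:**
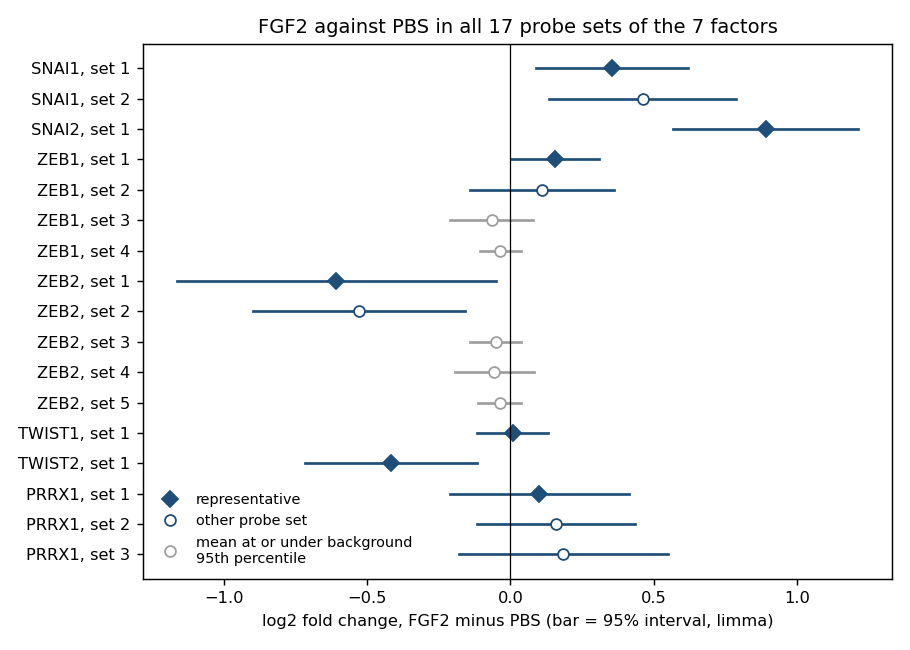
Log2 fold change, FGF2 minus PBS, of all 17 probe sets with 95% intervals from limma, where diamonds mark the representative probe set of each gene and grey marks the 5 probe sets at background. SNAI1 and SNAI2 lie to the right of zero and the bright ZEB2 and TWIST2 sets to the left, from 0.89 for SNAI2 to -0.61 for ZEB2.

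Within each family the difference between the paralogs was compared between the groups, and none of the 3 pairs passed 0.05, which 3 arrays against 3 cannot reach. A difference on the same array removes any scaling that an array shares. SNAI2 minus SNAI1 was -2.16, -2.83 and -2.30 with PBS beads and -1.89, -1.78 and -2.01 with FGF2 beads, a change of 0.54 in favor of SNAI2. ZEB2 minus ZEB1 was -1.15, -1.07 and -1.32 with PBS beads and -1.92, -2.28 and -1.63 with FGF2 beads, a change of -0.76. TWIST2 minus TWIST1 was 0.41, 0.08 and 0.26 with PBS beads and -0.15, -0.38 and 0.01 with FGF2 beads, a change of -0.43. In each of the 3 pairs the groups did not overlap. The exact two-sided permutation p was 0.1, the smallest that 3 arrays against 3 allow, and it only restates that lack of overlap. It was 0.1 after adjustment over the 3 pairs. The share of other gene pairs without overlap was not computed. SNAI1, SNAI2, ZEB1 and TWIST2 were already apart singly, where 16% of all genes were apart in either direction. The paralog differences do not show which gene of a pair differed between groups. They do not compare the levels of the genes, because probe sets differ in brightness for the same amount of RNA.

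**Figure D3:**
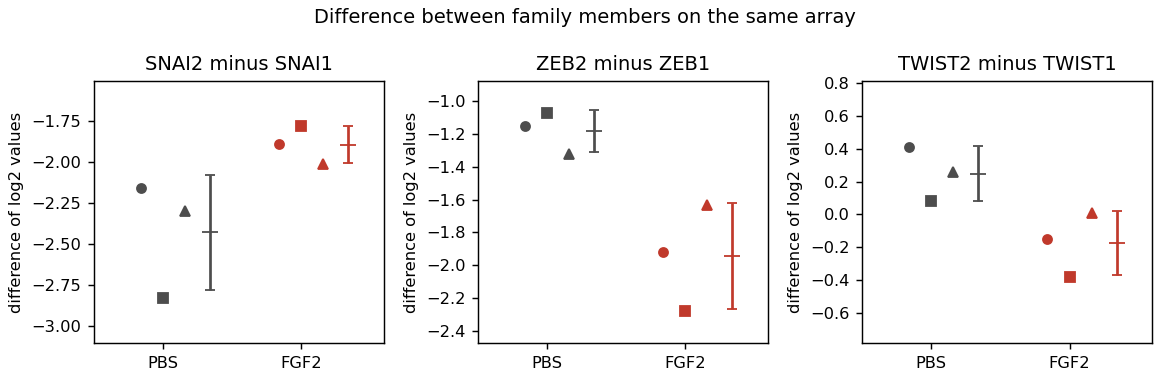
Difference between the log2 values of 2 family members on the same array (vertical axis) in the 3 PBS (grey) and the 3 FGF2 arrays (red), with mean and SD and with the circle, square and triangle for replicates 1, 2 and 3. The mean difference in FGF2 minus that in PBS arrays was 0.54 for the SNAI pair, -0.76 for the ZEB pair and -0.43 for the TWIST pair. The groups did not overlap, but the share of other gene pairs without overlap was not computed.

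Genes linked to these factors were described from lists chosen with earlier results of these data known. They are given by counts and medians, without a set test, beside a median log2 fold change of -0.01 over all genes. The share of all genes under an unadjusted p of 0.05 was 7.76% for higher and 4.58% for lower ones. Epithelial genes, the class that SNAI and ZEB proteins repress, were measured for 20 members. Of these 13 were higher and 7 lower, with PKP3 and ESRP1 at background among the lower, and the median was 0.03. At an unadjusted p under 0.05, 1 of them was higher and none lower, and none passed after adjustment. TJP3, a tight junction scaffold, gave 0.41 ± 0.166 (SE; adjusted p = 0.566) from a low PBS level of 4.51, and the tight junction claudin CLDN1 gave 0.36 ± 0.098 (SE; adjusted p = 0.440). CDH1, the E-cadherin gene and the classic target of SNAI1, gave 0.11 ± 0.103 (SE; adjusted p = 0.645). These genes are expressed in the limb ectoderm, so their level in this tissue also depends on how much ectoderm was taken.

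Of 25 measured mesenchymal genes 23 were lower, among them BGN and ACTA2 at background, and 2 were higher. The median was -0.14, and 4 were lower at an unadjusted p under 0.05, where 4.58% of all genes were. None passed after adjustment, and the groups were apart in 2 of the 25, where 16% of all genes were apart in either direction. The matrix glycoprotein TNC gave -0.98 ± 0.386 (SE; adjusted p = 0.557) and the collagen crosslinking enzyme LOX gave -0.75 ± 0.432 (SE; adjusted p = 0.644). The fibronectin gene FN1, named here after its values were seen, gave -0.30 ± 0.197 (SE; adjusted p = 0.644). The groups overlapped for TNC, LOX and FN1. They were apart for VIM (-0.22) and THY1 (-0.50), also named after their values were seen. The median ran from -0.21 to -0.06 in the leave-one-out fits. On single PBS arrays the list median, relative to the PBS mean, was 0.20, -0.14 and -0.02. The FGF2 arrays gave -0.18, -0.19 and -0.04, so PBS replicate 2 sat within the FGF2 range.

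Among the partners, inhibitors and relatives of TWIST, 8 of 13 measured genes were higher and 5 lower. The lower ones included FERD3L, TCF15 and HAND1, which were at background, and the list median was 0.10. At an unadjusted p under 0.05, 3 were higher and none lower, where 7.76% of all genes were higher and 4.58% lower. None passed after adjustment. ID1 and ID4, dominant negative helix-loop-helix proteins that sequester the E protein partners of TWIST, gave 0.41 ± 0.088 (SE; adjusted p = 0.346) and 0.40 ± 0.128 (SE; adjusted p = 0.496). The other ID genes, ID2 and ID3, named after their values were seen, gave 0.01 ± 0.072 and 0.14 ± 0.088 (SE; adjusted p = 0.944 and 0.644). The groups overlapped for both. ID1 was 13.60 on average in PBS and 14.01 in FGF2 tissue, with no overlap between groups. HAND2, a posterior limb factor that can pair with TWIST1 and that is named after its values were seen, gave 0.34 ± 0.157 (SE; adjusted p = 0.611), with overlap. The third gene counted as higher was TCF21, a helix-loop-helix factor also named after its values were seen, at 2.33, 2.32 and 2.46 in PBS and 3.66, 5.74 and 3.60 in FGF2 tissue (adjusted p = 0.480). Its PBS values were at background.

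Corepressors and turnover regulators of SNAI and ZEB had 16 of 21 measured genes higher and 5 lower, with a median of 0.09. At an unadjusted p under 0.05, 2 were higher and 1 lower, where 7.76% of all genes were higher and 4.58% lower by that measure. The higher ones, named after their values were seen, were FBXW7, a substrate receptor of a ubiquitin ligase, and the corepressor scaffold SIN3A. FBXW7 gave 0.15 ± 0.0212 (SE; adjusted p = 0.233) and SIN3A gave 0.20 ± 0.0522 (SE; adjusted p = 0.412). The groups were apart for both, where 16% of all genes were apart in either direction. BTRC, the F-box protein that marks phosphorylated SNAI1 for degradation, gave 0.41 ± 0.176 (SE; adjusted p = 0.589) with overlap, and PAK1, a kinase that phosphorylates SNAI1 and the 1 lower gene, gave -0.24 ± 0.051 (SE; adjusted p = 0.341). Of the 13 listed relatives of PRRX1 and SNAI, 6 were measured, all of them homeobox genes and none a relative of SNAI. Of these 1 was higher and 5 lower, with a median of -0.43. PITX3, among the lower genes and named after its values were seen, was near background. Its means were 3.93 in PBS and 3.59 in FGF2 tissue, where the background 95th percentile was 3.57. SHOX, a paired-type homeobox gene of the middle limb segments, gave -0.51 ± 0.124 (SE; adjusted p = 0.380) with the groups apart, and PITX1, a hindlimb factor, gave -0.51 ± 0.339 (SE; adjusted p = 0.644) with overlap. ALX4, a paired-type homeobox gene of the anterior limb bud that is dimmer than the median and named after its values were seen, had the largest difference in the list, -0.76 ± 0.0923 (SE; adjusted p = 0.171), with the groups apart. PRRX2, the paralog of PRRX1, was the 1 higher gene and is named after its values were seen. It gave 11.70 ± 0.186 in PBS and 12.07 ± 0.106 in FGF2 tissue (SD, n = 3), a log2 fold change of 0.37 ± 0.109 (SE; adjusted p = 0.464), with no overlap.

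Marker lists of muscle, neural crest and macrophage lineages also stood apart from the median of all genes, as did the cartilage list described below. In these lists 0 members were past an adjusted p of 0.05 in limma. Before adjustment 5 muscle and 2 neural crest markers were lower and 8 macrophage markers higher at 0.05. By that measure 7.76% of all genes were higher and 4.58% lower. Among 13 measured muscle lineage markers 12 were lower and 1 higher (median -0.50), and their summed level, the log2 of the summed linear values, was 15.70 to 15.92 in PBS and 15.31 to 15.79 in FGF2 arrays. The list median was -0.57, -0.79 and -0.09 in the FGF2 arrays. ZEB2 with -0.64, -0.999 and -0.19 and TWIST2 with -0.46, -0.56 and -0.22 had the same order of arrays. That order was not particular to muscle, as the cartilage medians (-0.35, -0.50 and -0.05) and the mesenchymal medians (-0.18, -0.19 and -0.04) had it too. In the PBS arrays the muscle medians were 0.04, -0.09 and 0.04, where ZEB2 gave 0.12, 0.08 and -0.19. TWIST2 was lowest in the same PBS array as the muscle medians, at 0.10, -0.18 and 0.08. None of the muscle markers was at background. All 9 measured neural crest, Schwann and melanoblast markers were lower (median -0.35), with summed levels of 12.20 to 12.46 in PBS and 11.58 to 12.13 in FGF2 arrays and with NGFR and CDH19 at background. Their medians in the FGF2 arrays were -0.17, -0.69 and -0.19. EDNRB and SOX10, both of which define that lineage, gave -0.99 ± 0.271 and -0.78 ± 0.362 (SE; adjusted p = 0.442 and 0.612). All 11 measured macrophage markers were higher (median 0.60), with summed levels of 11.12 to 11.27 in PBS and 11.81 to 12.07 in FGF2 arrays and with PTPRC, CYBB and MARCO at background. The macrophage medians were 0.61, 0.79 and 0.43 in the FGF2 arrays, where SNAI2 gave 0.75, 1.03 and 0.89. In the PBS arrays they were -0.05, 0.05 and 0.01, where SNAI2 gave 0.20, -0.22 and 0.02. The part of these lineages in the levels of ZEB2, TWIST2, SNAI1 and SNAI2 was not tested.

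Cartilage markers were lower in 11 of 13 (median -0.31; MATN3 at background), with summed levels of 15.53 to 16.34 in PBS and 15.41 to 15.92 in FGF2 arrays. The PBS arrays gave list medians of 0.37, -0.41 and 0.03, which overlapped those of the FGF2 arrays, at -0.35, -0.50 and -0.05. Endothelial markers had a median of -0.02, 4 of 12 higher and 8 lower, with ESAM and ROBO4 at background and summed levels of 12.86 to 13.15 and of 12.96 to 13.05. Limb ectoderm markers were higher in 7 of 11 and lower in 4 (median 0.11; KRT5, FGF8 and ESRP1 at background). Their summed levels were 12.86 to 12.94 in PBS and 12.95 to 13.18 in FGF2 arrays, which did not overlap. At an unadjusted p under 0.05 in limma 2 were higher and none lower, where 7.76% of all genes were higher and 4.58% lower. None passed after adjustment. The groups were apart for 3, all higher, where 16% of all genes were apart in either direction. Erythroid markers were higher in 3 of 7 and lower in 4 (median -0.02; RHAG at background), with summed levels of 15.03 to 15.49 and of 15.13 to 15.41.

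**Figure D4:**
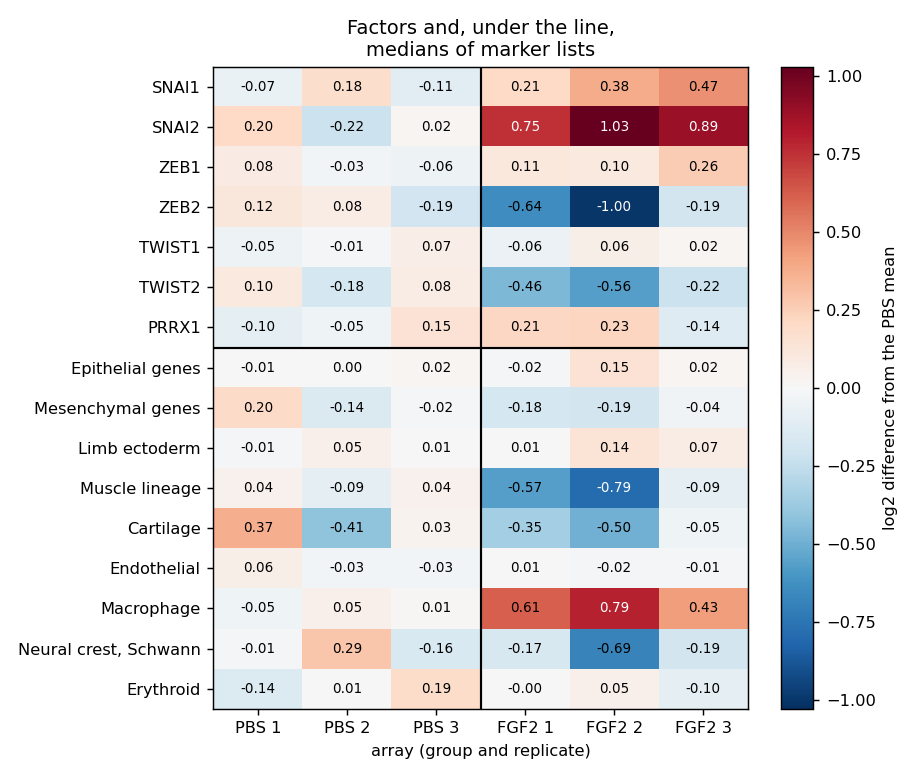
Log2 difference from the PBS mean on each of the 6 arrays (columns), for the representative probe set of each factor (rows over the line) and as the median over each marker list (rows under it), with red for higher and blue for lower. FGF2 replicate 3 is the FGF2 array nearest to the PBS mean for several rows, among them ZEB2 (-0.19) and TWIST2 (-0.22). The same holds for the muscle (-0.09), cartilage (-0.05), mesenchymal (-0.04) and macrophage (0.43) medians, but not for SNAI1 (0.47) or SNAI2 (0.89).

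SNAI2 had the widest range over the arrays of the 7 factors, 1.25, and its pattern was set beside those of 9258 other genes brighter than the median. The 3 nearest, by the root mean square difference of centred log2 values over the 6 arrays, were PTCHD1 at 0.072, NECAB1 at 0.081 and GREB1 at 0.088. PTCHD1 gave 8.72, 8.31 and 8.70 in PBS tissue and 9.24, 9.60 and 9.35 in FGF2 tissue. As with SNAI2, PBS replicate 2 was the lowest array and FGF2 replicate 2 the highest. Because the genes were chosen by likeness to SNAI2 on these same arrays, the shared order and the similar differences follow from the choice. The log2 fold changes of PTCHD1, NECAB1 and GREB1 were 0.82, 0.87 and 0.95, with adjusted p in limma of 0.301, 0.233 and 0.278.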

How the data were processed

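The authors labelled cRNA from 6 RNA pools and hybridized it to the Affymetrix Chicken Genome array. The deposited values were read as log2, since they end at 15.95 and no source used here states the base. RMA is named by both the processing notes of the submitters and the methods. No further normalization was applied. Of 38535 probe sets, 96 controls were left out. Symbols came from the platform annotation (27168 probe sets with 1 symbol, 177 with several, 11094 with none), and the Entrez identifiers of all 7 members were in the reference gene table. Groups came from the sample titles. The group difference was fitted by lmFit and eBayes (limma 3.58.1 under R 4.3.3). P-values are two-sided and were adjusted by Benjamini-Hochberg across 38439 probe sets. The representative probe set of a gene has the highest mean. The procedure was tested on simulated data.

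The members and lists were chosen with earlier results of these data known. The text names all members, and from each list of related genes up to 4 genes past the adjusted threshold or else the 2 brighter ones with the largest change, besides genes that define a cell type. Marker lists are given by counts, medians and summed levels. Each array was left out in turn. Further alternatives were the replicate number as a block, array weights, a robust fit with a variance trend, repeated quantile normalization, centring on the median, the 19219 brighter probe sets, removal of the 10468 whose class may read several transcripts, the mean over a gene's probe sets and an unadjusted threshold. The leave-one-out counts at an unadjusted p were added after seeing the data. No coordinates are given, as the probe sets were not aligned.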

Additional observations from a re-analysis of the deposited data

How the results depend on the processing

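The directions of SNAI1, SNAI2, ZEB1, ZEB2 and TWIST2 held in every alternative run, but array weights reduced ZEB2 from -0.61 to -0.18 and its second bright set from -0.53 to -0.24. No member passed an adjusted p of 0.05 except SNAI2 with a variance trend (0.89) and, with array weights, SNAI2 (0.83) and SNAI1 (0.54), so that 1 and 3 member probe sets passed. At an unadjusted p 7 did, where 8.93% of all probe sets did. With each array left out 4 to 6 did, where 5.27% to 10.5% of all probe sets did. Array weights turned PRRX1 to -0.15 (other probe sets -0.036 and -0.054). They gave FGF2 replicate 3 a weight of 8.45 against 0.275 to 2.25 for the other arrays. TWIST1 turned to -0.02 without PBS replicate 1 or FGF2 replicate 2 and ran from -0.02 to 0.043. The mean of all probe sets gave 0.041 for ZEB1 and -0.26 for ZEB2, whose dim sets lower it. The count over all probe sets, 4, was 0 to 3 with each array left out, 7 after quantile normalization again, 40 for brighter probe sets, 39 with the trend, 2256 with array weights and 3433 unadjusted. The median of the TWIST partner list was 0.14 for brighter probe sets, 0.061 with the mean of all probe sets and -0.01 to 0.14 with each array left out, and that of the corepressor list 0.042 with the mean of all probe sets and 0.045 to 0.12 with each array left out. Apart from the dim probe sets named, the cause of these shifts was not tested.

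With the replicate block 1 probe set passed in all and no member did. By the methods each day gave a pool per treatment group, but no source ties the numbers to days. Same-numbered arrays did not deviate together (correlations of -0.27, 0.04 and -0.22 over the brighter probe sets). No array correlated best with its own number (-0.21 to 0.39 between different numbers). Which PBS array shares a day with which FGF2 array therefore stays unknown here. The block changed no other call at the adjusted threshold. At an unadjusted p under 0.05 in limma it left 5 member probe sets of the 7, none of them of ZEB1, where 8.54% of all probe sets were. For the ZEB genes 5 of 9 probe sets were at background, so their levels rest on the bright sets. Those had means over all arrays of 11.58 and 11.21 for ZEB1 and of 10.02 and 8.70 for ZEB2.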

Other observations

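The nearest measured protein-coding gene on each side of every factor, in the order of the RefSeq GRCg7b annotation, was chosen by position and not by value. Around SNAI2 both neighbours were at background, with LOC421108 at 1.58 and 1.56 and C8orf22 at 2.56 and 2.63 in PBS and FGF2 tissue. Beside SNAI1, RNF114, a ubiquitin ligase, gave a log2 fold change of 0.21 ± 0.049 (SE; adjusted p = 0.365) and TMEM189 gave 0.10 ± 0.044 (SE; adjusted p = 0.592). The groups did not overlap for either, where they were apart for 16% of all genes. Beside ZEB2, GTDC1 gave -0.02 and the activin receptor gene ACVR2A gave -0.08, against -0.61 for ZEB2 itself. The histone deacetylase gene HDAC4, next to TWIST2, gave -0.19 ± 0.072 (SE; adjusted p = 0.543) with the groups apart. On the other side of TWIST2, ASB1 gave 0.01 with overlap. HDAC9, next to TWIST1, gave -0.03 ± 0.121 (SE; adjusted p = 0.895), and FERD3L, at background, gave -0.01. Beside ZEB1, ARHGAP12 gave 0.16 and ZNF438 gave -0.05, both with overlap. Both neighbours of PRRX1 were at background, FMO4 with -0.03 and overlap and GORAB with -0.05 and the groups apart. None of these 14 neighbours passed an adjusted p of 0.05 in limma, and 2 of them, RNF114 and HDAC4, were under 0.05 before adjustment, 1 higher and 1 lower, where 7.76% of all genes were higher and 4.58% lower by that measure.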
